A study of Mus musculus with 2 samples.

Results

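A set of 9 genes of scar formation was followed across the cell types of the postischemic mouse kidney. They are the fibrillar collagen genes Col1a1, Col1a2 and Col3a1, the fibronectin gene Fn1, the TGF-β ligand genes Tgfb1 and Tgfb2, the receptor gene Tgfbr2, the protease inhibitor gene Timp1 and the smooth muscle actin gene Acta2. They were chosen by name and make up 9 of the 32285 genes counted. Single cells were taken from 1 control kidney and 1 JPI-289 treated kidney of 9-week-old male C57BL/6 mice, 24 h after bilateral renal ischemia-reperfusion surgery. Both mice had the surgery. JPI-289, an inhibitor of poly (ADP-ribose) polymerase, was given intraperitoneally at 100 mg/kg just before blood flow was restored, and the control mouse received saline at that moment. No kidney without ischemia was analysed here. Each condition is 1 library from 1 mouse, so no test between the conditions was possible, and every difference below is a difference between these 2 libraries.

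TGF-β is secreted in a latent form, is stored in the matrix, and is released by integrins and proteases. The active ligand binds the receptor encoded by Tgfbr2, which recruits a partner receptor and signals through SMAD proteins to collagen, fibronectin and other matrix genes. In the injured kidney, fibroblasts and pericytes that take on smooth muscle actin are regarded as the main makers of fibrillar collagen, while infiltrating monocytes make fibronectin and ligand.

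The libraries held 38328760 UMIs (unique molecular identifiers, each standing for 1 RNA molecule captured) in the control and 35548396 with JPI-289. After cell calling and removal of cells with over 50% mitochondrial UMIs, 3750 control and 5045 JPI-289 treated cells remained, with a median of 2056.5 and 1866 UMIs, and 23 barcodes occurred in both libraries. The cells were clustered without the genes described here, named from markers, and compared in 11 classes with at least 20 cells in each library. Levels are UMIs per 1000000 UMIs of a class (CPM), with exact 95% Poisson intervals. Differences are log2 ratios of JPI-289 over control, with exact 95% binomial intervals, taken where a gene had at least 20 UMIs in the class over both libraries. These intervals cover counting error only and not the difference between mice. A level is called higher or lower here where the interval of its ratio leaves out 0. Counts of genes at least 2-fold higher or lower go by the ratio alone, whatever its interval. Levels were not compared between genes, since a 5′ count does not measure them on 1 scale.

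Of the 99 combinations of a gene and a class, 40 had enough UMIs. In 6 of them the level was at least 2-fold higher in the JPI-289 library and in 11 at least 2-fold lower. In stroma-like cells, the class led by markers of mural cells and fibroblasts, 0 of 9 genes was 2-fold higher, against 11.3% of all genes measured, and 3 were 2-fold lower, against 14.2%. These 3 were the collagens. In EC-like cells (endothelial), 1 of 6 measured genes was 2-fold higher, Tgfbr2, against 5.11% of all genes, and 2 were 2-fold lower, Fn1 and Acta2, against 18.7%. In monocyte-like cells, 0 of 4 was higher and 0 lower by 2-fold, against 10.1% and 13.0% of all genes. The smaller shifts of these cells are given gene by gene. In PT-like cells (proximal tubule), Tgfb1 alone of 5 was 2-fold higher and Acta2 alone 2-fold lower, against 9.14% and 23.5% of all genes. In C1q macrophage-like cells, 2 of 5 were 2-fold higher, Fn1 and Timp1, against 11.3% of all genes, and Acta2 was 2-fold lower, against 17.0%. The Timp1 difference, from 6 and 15 UMIs, was within counting error, at 1.24 (-0.14 to 2.96). Neutrophil-like cells had 0 of 3 genes 2-fold higher, against 11.6%, and 2 of 3 lower, Tgfb1 and Acta2, against 10.3%. The other 2-fold differences lay in tubule classes. Loop of Henle-like cells had 0 of 3 higher, against 7.56%, and 1 lower, Fn1, against 11.4%. DCT and CNT-like cells (distal convoluted and connecting tubule) had 1 of 2 higher, Timp1, against 8.34%, and 0 lower, against 9.90%. CD principal-like cells (collecting duct) had 1 of 3 higher, Tgfb1, against 8.50%, and 1 lower, Timp1, against 13.7%. Intercalated-like and red blood cell-like cells had none of the 9 genes at 20 UMIs.

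**Figure D1:**
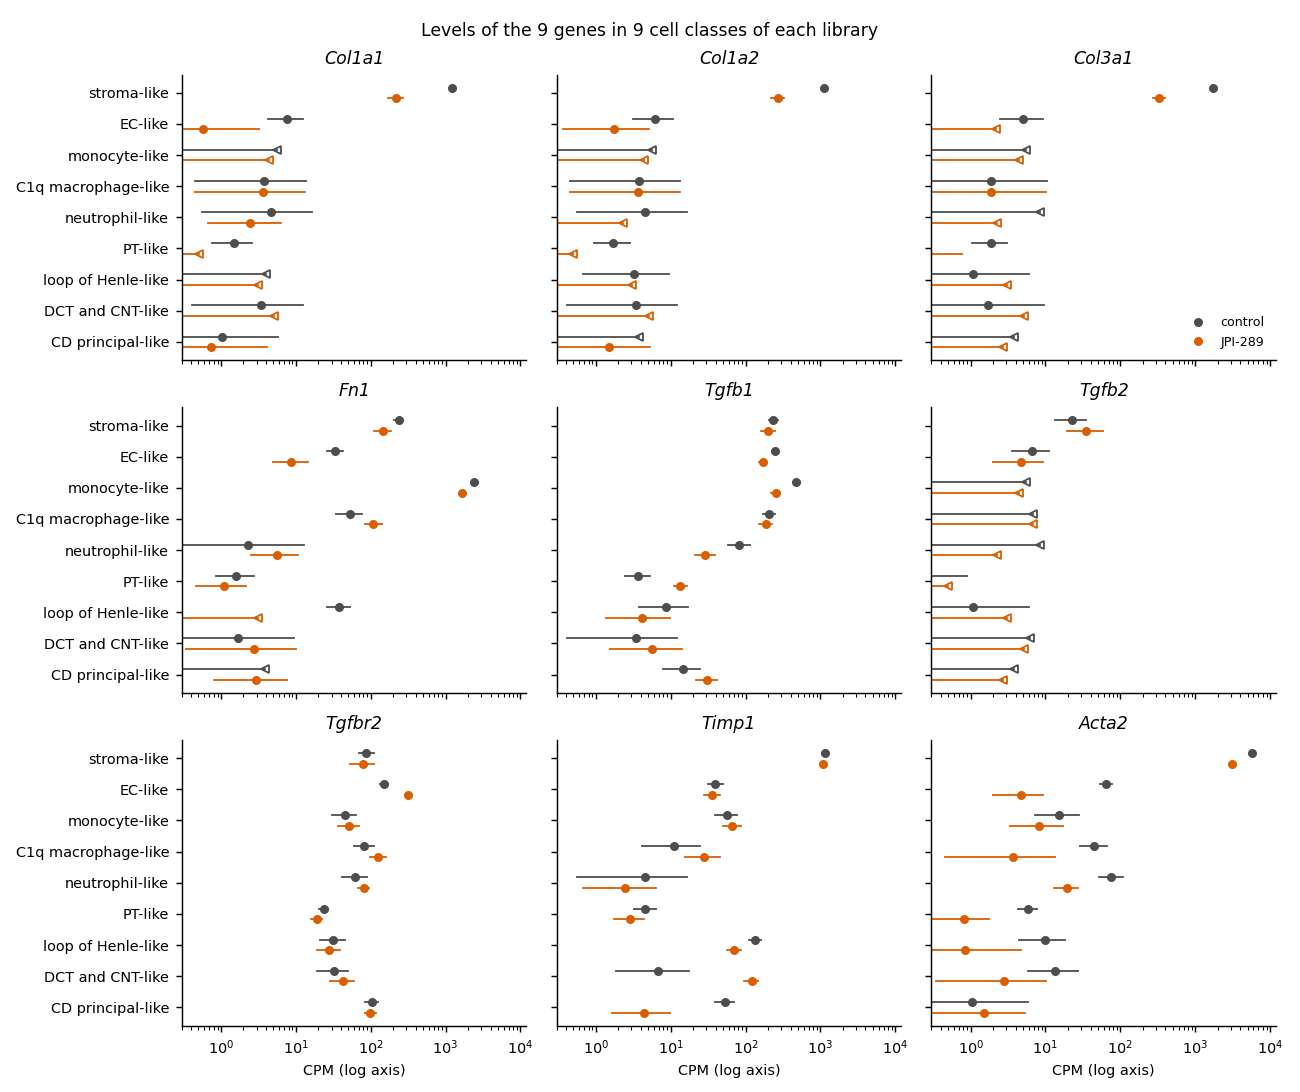
CPM of each gene (log axis) in 9 cell classes of the control library (grey) and the JPI-289 library (orange). Points are levels and lines exact 95% Poisson intervals, cut at the left edge of the axis, and an open triangle marks the upper bound where no UMI was counted; the collagens and Acta2 stand in the stroma-like class, Fn1 in the monocyte-like class, and Tgfbr2 in every class.

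Col1a1 and Col1a2 encode the chains of type I collagen, and Col3a1 that of type III collagen, which is laid down early in wounds. All 3 were found mainly in stroma-like cells in both libraries. Col1a1 (ENSMUSG00000001506, chromosome 11 from 94936224 to 94953042 of GRCm38, plus strand) had 96.3% of its UMIs over the control cells and 87.8% over the JPI-289 treated cells in this class. Its level there was 1208 CPM (1135 to 1285) in the control library, from 1020 UMIs in 66 of 158 cells. In the JPI-289 library it was 216 (173 to 267), from 86 UMIs in 21 of 101 cells. The log2 ratio of CPM was -2.48 (-2.82 to -2.17), a 5.56-fold lower level with JPI-289. Col1a2 (ENSMUSG00000029661, chromosome 6 from 4504814 to 4541544, plus strand) had 936 UMIs in 73 control cells and 107 in 32 JPI-289 treated cells. Its level was 1109 CPM (1039 to 1182) against 269 (220 to 325), a log2 ratio of -2.04 (-2.35 to -1.75). Col3a1 (ENSMUSG00000026043, chromosome 1 from 45311538 to 45349706, plus strand) had 1450 UMIs in 69 control cells and 131 in 23 JPI-289 treated cells. Its level was 1717 CPM (1630 to 1808) against 329 (275 to 390), a log2 ratio of -2.38 (-2.65 to -2.13). The collagens were thus lower together, by 4.11-fold to 5.56-fold, and the intervals of the libraries do not meet.

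The lower level went with fewer collagen-positive cells. Drawing 1000 UMIs at random from each stroma-like cell (thinning; 108 control and 68 JPI-289 treated cells were deep enough) gave a Col1a1 share of 39.8% (30.5 to 49.7%) in the control and 14.7% (7.28 to 25.4%) with JPI-289. Without thinning the shares were 41.8% and 20.8%. For Col1a2 the thinned shares were 36.1% and 17.6%, and for Col3a1 38.9% and 13.2%. Red blood cell-like cells, which should lack collagen, had no Col1a1 UMI after thinning in 56 control and 93 JPI-289 treated cells, which allows shares of up to 5.36% and 3.23%, at median depths of 1860 and 1851 UMIs before thinning against 3782.5 and 4284.5 in the stroma-like cells. In the control library 93 of 158 stroma-like cells had a UMI of at least 1 of the 3 collagens and 50 had all 3, and in the JPI-289 library 40 of 101 and 13. The 10 cells with most collagen held 50.4% of the collagen UMIs of the class in the control and 73.1% with JPI-289, so the JPI-289 value rests on few cells. In a level summed over cells, fewer collagen-making cells and less RNA per cell cannot be told apart. Over all barcodes of the libraries, cells or not, Col1a1 had 1499 and 121 UMIs, a log2 ratio of -3.52 (-3.80 to -3.25). Stroma-like cells made up 158 of 3750 control and 101 of 5045 JPI-289 treated cells. Outside the stroma, Col1a1 was at 7.62 CPM (4.26 to 12.6) in control EC-like cells and 0.582 (0.0147 to 3.24) in JPI-289 treated ones, where free RNA was estimated to give 7.30 and 0. PT-like cells had 12 Col1a1 UMIs in the control and 0 with JPI-289. Podocyte-like cells, too few in the control to be compared, had 1 Col1a2 UMI in 13 control cells. In 51 JPI-289 treated cells they had 9, 117 CPM (53.7 to 223), where free RNA was estimated to give 1.72.

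Upstream sequence is shown for the collagens that were lower together, as far as the promoter table holds them, and for Timp1, which was not lower in the same cells. The 250 bases before the start site come from RefSeq (GRCm38.p6) and run 5′ to 3′ on the gene's strand. Capitals mark the SMAD site CAGAC, the CCAAT box CCAAT and the TATA box TATAAA, each searched on both strands, so that a site on the opposite strand reads GTCTG or ATTGG. None of the marked sites overlap. The Col1a2 window lies within the gene span given above, since that span comes from another annotation (GENCODE) with an earlier start.
Col1a2, chr6:4505368-4505617, plus strand: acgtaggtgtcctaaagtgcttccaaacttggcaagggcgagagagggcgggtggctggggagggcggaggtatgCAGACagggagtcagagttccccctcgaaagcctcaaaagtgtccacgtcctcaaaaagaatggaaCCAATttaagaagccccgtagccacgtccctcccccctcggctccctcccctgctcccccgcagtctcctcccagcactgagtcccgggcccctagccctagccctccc
Col3a1, chr1:45311288-45311537, plus strand: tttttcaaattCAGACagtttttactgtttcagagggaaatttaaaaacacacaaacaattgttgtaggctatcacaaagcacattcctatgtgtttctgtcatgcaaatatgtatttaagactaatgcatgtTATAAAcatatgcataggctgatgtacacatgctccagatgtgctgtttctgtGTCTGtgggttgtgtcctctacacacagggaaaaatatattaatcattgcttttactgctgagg
Timp1, chrX:20869916-20870165, plus strand: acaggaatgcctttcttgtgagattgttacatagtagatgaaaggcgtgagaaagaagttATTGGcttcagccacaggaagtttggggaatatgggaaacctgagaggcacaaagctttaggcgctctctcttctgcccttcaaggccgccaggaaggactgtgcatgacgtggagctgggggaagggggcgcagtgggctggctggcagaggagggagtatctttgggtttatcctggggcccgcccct
The Col1a2 window holds 1 SMAD site and 1 CCAAT box, the Col3a1 window 2 SMAD sites and 1 TATA box, and the Timp1 window 1 CCAAT box. The AP-1 site TGANTCA and the CArG box bound by serum response factor had no match in these windows. Among 32536 windows of the table, 42.2% hold a SMAD site, 33.8% a CCAAT box, 12.3% the TATA box, 6.7% the AP-1 site and 1.5% a CArG box. Of the 9 genes, 7 were in the table. Both collagens share the SMAD site with many other genes, and a match is a description of letters only.

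The stroma-like class was itself mixed, and its make-up differed between the libraries. Clustering its cells again gave 7 subclusters, numbered 0 to 6. Subcluster 1 was led by Ren1, Myh11, Rgs5 and Cspg4, genes of renin cells, smooth muscle and pericytes. It is called mural and held 28 control and 24 JPI-289 treated cells. Subcluster 6, with the fibroblast markers Lum, Dcn, C7 and Clec3b among its leading genes, is called fibroblast-like and held 4 and 5. Subcluster 3, led by Col8a1 and Col12a1, held 23 and 9, and subcluster 5, with Eln, Mgp and Fbln5, 12 and 3. Subcluster 0 held 60 and 19 shallow cells, with a median of 849.5 and 829 UMIs. Subcluster 4, which included endothelial genes such as Plvap and Kdr, held 22 control cells, with a median of 13951.5 UMIs, and 0 JPI-289 treated cells. Subcluster 2, led by the neutrophil genes S100a9 and S100a8 with Ren1 and Ednrb also among its leading genes, held 9 and 41. Against all cells outside the stroma, the mean log2 difference of its markers was 2.79 for mural cells, 0.91 for fibroblasts and -2.3 for neutrophils. Mural markers were at 5.98 in subcluster 1, 2.67 in subcluster 3 and 2.58 in subcluster 5, so they were not confined to subcluster 1. Over the whole class the 8 neutrophil markers summed to 252 CPM in the control and 696 with JPI-289, with 3 and 2 of the 8 at 0, and the 10 EC markers to 918 and 789. The 6 loop of Henle markers summed to 32.0 and 364 CPM, with 2 of 6 at 0 in each library, and the 5 red blood cell markers to 80.5 and 397. The class's own markers were lower with JPI-289, the 8 of fibroblasts at 1568 against 1045 CPM and the 9 of mural cells at 16027 against 11297. The part of these markers, and of the make-up by subcluster, in the collagen and Acta2 differences was not tested. Without subclusters 2 and 4, a choice made after seeing the data, the log2 ratio was -2.19 for Col1a1, -1.99 for Col1a2 and -2.08 for Col3a1.

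**Figure D2:**
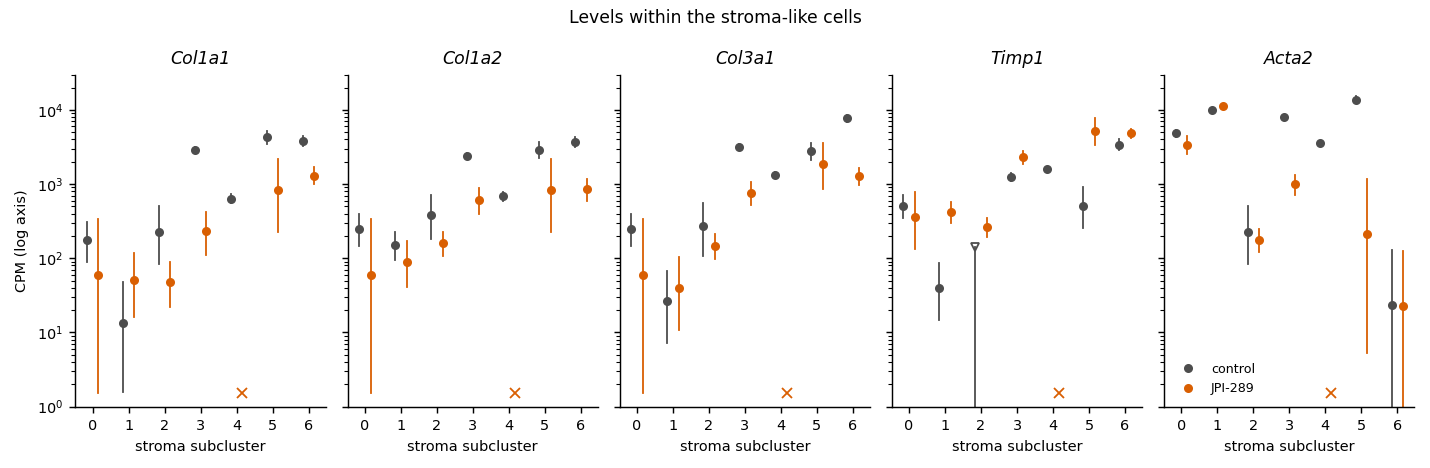
CPM (log axis) of the collagens, Timp1 and Acta2 in each stroma subcluster of the control library (grey) and the JPI-289 library (orange). Points are levels with exact 95% Poisson intervals, an open triangle is the upper bound of a count of 0, and a cross marks the subcluster without JPI-289 treated cells; in subclusters 3, 5 and 6 Col1a1 was lower and Timp1 higher with JPI-289.

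Subcluster 4, which has no JPI-289 treated cells to compare, held 22.3% of the Col1a1, 25.9% of the Col1a2 and 32.3% of the Col3a1 UMIs of control stroma. Of the other subclusters, 3 and 6 had lower levels of all 3 collagens with JPI-289. In subcluster 3, Col1a1 was at 2925 CPM (2678 to 3188) in the control and 231 (111 to 426) with JPI-289, a log2 ratio of -3.59 (-4.73 to -2.77). Col1a2 was at 2383 against 602 and Col3a1 at 3168 against 764 CPM there. In the fibroblast-like subcluster 6, Col1a1 was at 3793 (3233 to 4422) in 4 control cells and 1303 (987 to 1688) in 5 JPI-289 treated cells, a log2 ratio of -1.53. Col3a1 was there at 7726 against 1280 CPM, a log2 ratio of -2.58 (-3.03 to -2.18). In subcluster 5, Col1a1 was at 4284 against 840 CPM, with 3 JPI-289 treated cells only, and Col3a1 at 2794 against 1889 CPM, a log2 ratio of -0.50 (-1.76 to 0.46), within counting error. The mural subcluster 1 had little Col1a1 in either library, 13.2 and 50.1 CPM from 2 and 5 UMIs. The fibroblast-like cells held 163 of the 1020 Col1a1 UMIs of control stroma and 57 of the 86 with JPI-289. Without them the log2 ratio of Col1a1 over the class was -3.68, and that of Col3a1 -2.71, so the class value turns on 9 cells in its size but not in its direction.

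Fn1 (ENSMUSG00000026193, chromosome 1 from 71585520 to 71653200, minus strand) encodes fibronectin, the adhesive glycoprotein on which collagen is assembled. Unlike the collagens, it was a gene of the monocyte-like cells, which held 82.1% of its UMIs in the control and 90.0% with JPI-289. Its level there was 2405 CPM (2288 to 2526) in the control, from 1594 UMIs in 66 of 70 cells, and 1681 (1595 to 1771) with JPI-289, from 1416 UMIs in 115 of 131 cells. The log2 ratio was -0.52 (-0.62 to -0.41). The thinned shares were 76.8% (65.1 to 86.1%) of control cells and 55.4% (46.4 to 64.1%) of JPI-289 treated cells, and 94.3% and 87.8% without thinning. Red blood cell-like cells had no Fn1 UMI in either library after thinning. The markers of this class were themselves lower with JPI-289. Its 8 monocyte markers summed to 17611 CPM in the control and 6529 with JPI-289, and the 8 markers of C1q macrophages to 2590 and 800, and their part in the Fn1 difference was not tested.

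In stroma-like cells, Fn1 was at 236 CPM (204 to 271) against 146 (111 to 188), a log2 ratio of -0.69 (-1.14 to -0.27). The thinned shares of 20.4% and 7.35% go the same way, but thinning to 500 UMIs gave 8.86% and 9.90%, so detection does not hold this direction. In EC-like cells, 66 control UMIs stood against 15, 33.5 and 8.73 CPM, a log2 ratio of -1.90 (-2.86 to -1.12). A single control cell held 22 of the 66, free RNA was estimated at 8.84 and 7.67 CPM, and with equal weight for each cell the ratio was -0.36. C1q macrophage-like cells went the other way. They had 28 UMIs in 3 control cells and 59 in 9 JPI-289 treated cells, 52.4 against 109 CPM, a log2 ratio of 1.05 (0.39 to 1.77), and 23 UMIs in each library came from 1 cell. This ratio reversed to -0.74 at a limit of 20% mitochondrial UMIs and to -0.98 when cells were called by total UMIs alone. The 8 markers of C1q macrophages summed to 14767 CPM in these control cells and 7172 with JPI-289, and the 8 of monocytes to 2468 and 759. The 8 neutrophil markers summed to 643 and 2168 CPM, and the 5 red blood cell markers to 82.3 and 3537. The part of these shifts in the Fn1 difference was not tested. Loop of Henle-like cells had 35 control UMIs, all in 2 cells and 28 of them in 1 cell, and 0 with JPI-289. Against a limit of 3 UMIs for that 0, the observed control level was 15.1-fold higher. The interval of the log2 ratio reaches up to -3.54, a smaller difference. PT-like cells were near 0, with 13 UMIs in the control and 8 with JPI-289.

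Tgfb1 (ENSMUSG00000002603, chromosome 7 from 25687002 to 25705077, plus strand) encodes the TGF-β ligand best known from kidney fibrosis. It was spread over blood-derived, endothelial and stromal cells. Among the 11 classes compared, its control level was highest in monocyte-like cells, 478 CPM (427 to 534). EC-like cells at 249 (227 to 272), stroma-like cells at 236 (204 to 271) and C1q macrophage-like cells at 206 (169 to 248) followed, and these 3 overlap. The 14 platelet-like control cells, too few to be compared, were at 735 (367 to 1316) from 11 UMIs. With JPI-289 the monocyte-like cells were at 253 from 213 UMIs, and the stroma-like cells at 201 (159 to 250) and C1q macrophage-like cells at 185 (151 to 225) came next, without a gap to them. Monocyte-like cells were thus highest of the compared classes in both libraries. With JPI-289 they stood apart from EC-like cells at 169 (151 to 190) but not from stroma-like or C1q macrophage-like cells. The log2 ratio was -0.92 (-1.18 to -0.66) in monocyte-like cells, from 317 and 213 UMIs, and -0.55 (-0.77 to -0.34) in EC-like cells, from 490 and 291. In stroma-like cells it was -0.23 (-0.62 to 0.15) and in C1q macrophage-like cells -0.15 (-0.56 to 0.25), both within counting error. Neutrophil-like cells had 36 UMIs in 25 of 196 control cells and 47 in 39 of 655 JPI-289 treated cells, 82.8 against 29.1 CPM, a log2 ratio of -1.51 (-2.17 to -0.84). Free RNA was estimated at 10.5 and 7.62 CPM there, and the 8 monocyte markers summed to 6761 and 3062 CPM. The part of these markers, and of the lower markers of monocyte-like cells given with Fn1, in the Tgfb1 differences was not tested.

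In PT-like and CD principal-like cells Tgfb1 was low and was higher with JPI-289. PT-like cells had 30 UMIs in 27 of 1789 control cells and 99 in 87 of 1652 JPI-289 treated cells. This was 3.69 CPM (2.49 to 5.27) against 13.5, a log2 ratio of 1.85 (1.27 to 2.51). Free RNA was estimated at 3.73 CPM in the control and 1.25 with JPI-289, so the control level was no higher than free RNA and the JPI-289 level was. The thinned shares were 0.297% (0.0809 to 0.758%) and 1.32% (0.740 to 2.16%), and 1.51% and 5.27% unthinned, beside 0 of 56 and 0 of 93 red blood cell-like cells. At this depth the shares of red blood cell-like cells allow more than the PT-like shares, so the shares alone do not set Tgfb1 in PT-like cells apart from free RNA. The PT-like clusters each came almost wholly from 1 library, the largest with 1023 control and 8 JPI-289 treated cells and the next with 11 and 984. The 5 markers of injured PT summed to 757 CPM in control PT-like cells and 7888 with JPI-289, and their part in the Tgfb1 difference was not tested. CD principal-like cells had 14 and 41 UMIs, 14.5 against 30.5 CPM, a log2 ratio of 1.04 (0.16 to 2.06), but the control cells were deeper, with a median of 9305 UMIs against 1541.

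Tgfb2 (ENSMUSG00000039239, chromosome 1 from 186622792 to 186705989, minus strand) was close to the counting limit. It had 39 UMIs over all control cells and 26 over all JPI-289 treated cells, of which stroma-like cells had 19 and 14. There it was at 22.5 CPM (13.5 to 35.1) against 35.2 (19.2 to 59.0), a log2 ratio of 0.66 (-0.46 to 1.72). In the mural subcluster 1, 10 of the 19 control stroma UMIs were found. EC-like cells had 13 and 8 UMIs, a log2 ratio of -0.47 (-1.98 to 0.88). A difference of Tgfb2 was not detectable at this depth.

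**Figure D3:**
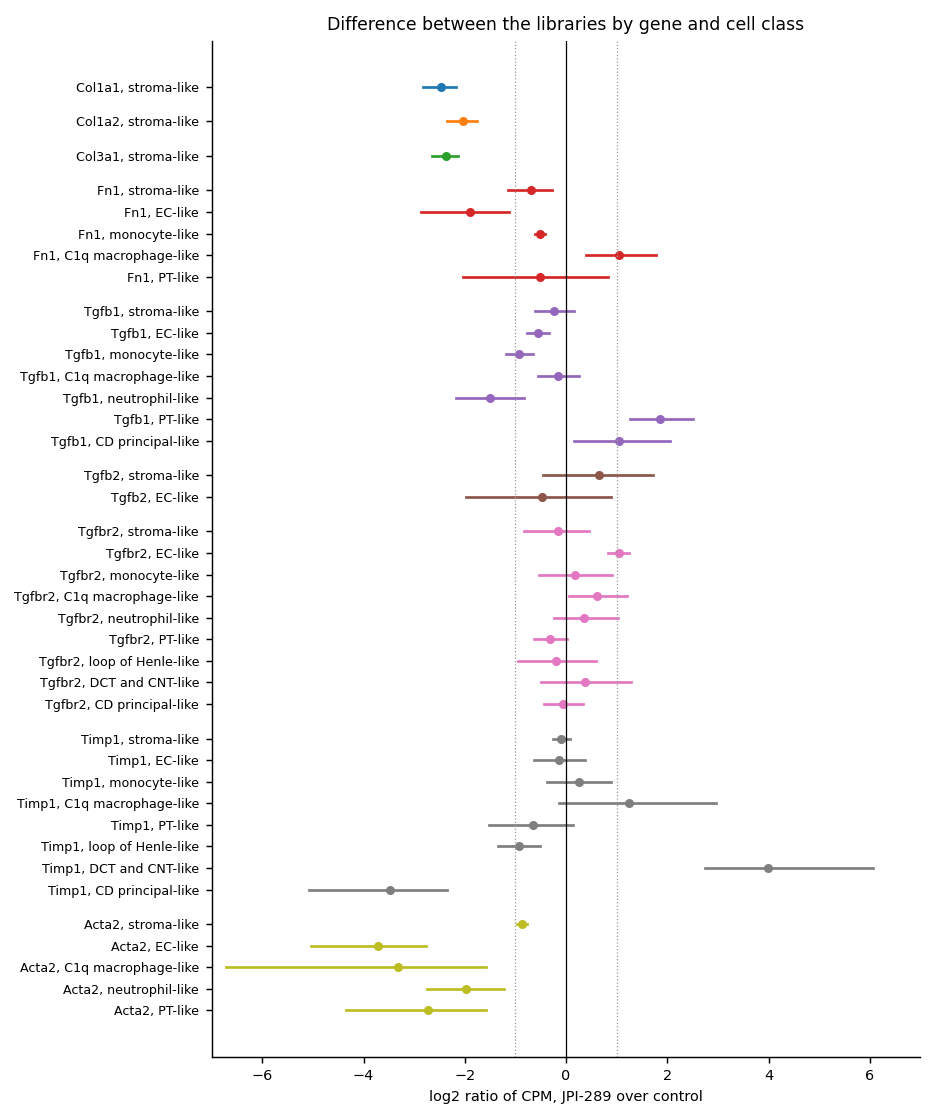
Log2 ratio of CPM, JPI-289 over control, for each gene and class with at least 20 UMIs over both libraries and a UMI in each. Points are ratios and lines exact 95% binomial intervals, dotted lines mark 2-fold; the collagens lie left of -2, most Tgfbr2 intervals cross 0, and Tgfb1 lies on both sides.

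Tgfbr2 (ENSMUSG00000032440, chromosome 9 from 116084293 to 116175360, minus strand) encodes the receptor that binds the ligand first. It was found in every tubular, endothelial, stromal and white blood cell class. EC-like cells had the most in both libraries. The EC-like level was 151 CPM (135 to 170) in the control, from 298 UMIs in 164 of 502 cells. With JPI-289 it was 311 (285 to 338), from 534 UMIs in 231 of 569 cells. The log2 ratio was 1.04 (0.83 to 1.25). After thinning to 1000 UMIs, 58 of 362 control EC-like cells had a Tgfbr2 UMI and 110 of 374 (29.4%, 24.8 to 34.3%) with JPI-289, and 32.7% and 40.6% without thinning. Thinned to 500 UMIs the gap was 4.54 percentage points. In red blood cell-like cells 1 of 56 control and 0 of 93 JPI-289 treated cells had one. No single cell held more than 8 of these UMIs in either library. The log2 ratio stayed between 0.91 and 1.23 under the alternatives tried. Endothelial receptor and ligand thus differed in opposite directions between the libraries, with Tgfbr2 higher and Tgfb1 lower with JPI-289. The 10 EC markers of this class summed to 13685 CPM in the control and 10669 with JPI-289, and the 5 red blood cell markers to 113 and 1357. The 5 markers of injured PT summed to 352 and 887, and the 8 of C1q macrophages to 1558 and 893. The part of these shifts in the differences of EC-like cells was not tested.

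Among the other classes, Tgfbr2 was higher with JPI-289 in C1q macrophage-like cells, at 82.3 CPM (59.8 to 110) against 126 (97.8 to 160), a log2 ratio of 0.61 (0.05 to 1.20). The part of the marker shifts of this class, given with Fn1, in the Tgfbr2 difference was not tested. The log2 ratio was -0.31 (-0.63 to 0.01) in PT-like cells, from 192 and 140 UMIs, and -0.06 (-0.44 to 0.34) in CD principal-like cells, from 99 and 133. In stroma-like cells it was -0.16 (-0.83 to 0.45), in neutrophil-like cells 0.35 (-0.23 to 1.03), in monocyte-like cells 0.17 (-0.53 to 0.90), in loop of Henle-like cells -0.19 (-0.95 to 0.59) and in DCT and CNT-like cells 0.37 (-0.49 to 1.29). None of these 7 intervals leaves out 0, and that of DCT and CNT-like cells reaches past 2-fold. Below the EC-like cells, the order of the compared classes was not set. Neighbours from CD principal-like cells at 103 CPM to monocyte-like cells at 45.3 overlapped in the control library.

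Timp1 (ENSMUSG00000001131, chromosome X from 20870166 to 20874735, plus strand) encodes a tissue inhibitor of metalloproteinases, which slows the breakdown of matrix. Its level was highest in stroma-like cells and, unlike the collagens, was comparable there. It was at 1167 CPM (1095 to 1242) in the control, from 985 UMIs in 76 cells, and 1093 (992 to 1200) with JPI-289, from 435 UMIs in 37 cells, a log2 ratio of -0.09 (-0.26 to 0.07). The cell with most Timp1 held 188 of the control UMIs and 136 of those with JPI-289. The thinned shares were 28.7% and 22.1%, and the unthinned 48.1% and 36.6%. The comparable level did not hold within the subclusters. The subcluster without JPI-289 treated cells held 57.4% of the control Timp1 UMIs, and within subclusters Timp1 was higher with JPI-289 in 5 of the 6 that had cells of both libraries. It was at 1253 against 2291 CPM in subcluster 3, a log2 ratio of 0.87 (0.51 to 1.22), at 3398 against 4868 in the fibroblast-like subcluster, 0.52 (0.21 to 0.83), and at 39.5 against 421 in the mural subcluster, 3.31 (2.17 to 4.94). The fibroblast-like values came from 3 control and 4 JPI-289 treated cells with a Timp1 UMI. Subcluster 5 had 11 and 25 UMIs, and subcluster 2 had 0 and 50. Without subclusters 2 and 4 the log2 ratio of Timp1 over the class was 1.02, while those of the collagens were near -2, and without the fibroblast-like cells it was -0.74.

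In tubule cells Timp1 differed in both directions. Loop of Henle-like cells had 124 UMIs in 26 of 275 control cells and 84 in 35 of 395 JPI-289 treated cells, 134 against 70.1 CPM, a log2 ratio of -0.93 (-1.35 to -0.52), with 27 and 16 UMIs in the cell that had most. With equal weight for each cell the ratio was -0.06, and at a limit of 20% mitochondrial UMIs -0.22. The 6 markers of DCT and CNT summed to 8580 CPM in these control cells and 1277 with JPI-289, the 5 red blood cell markers to 1260 and 94.3, and the class's own 6 to 6425 and 9138, and their part in the Timp1 and Fn1 differences was not tested. DCT and CNT-like cells had 4 UMIs in the control and 86 with JPI-289, a log2 ratio of 3.99 (2.74 to 6.06), but 51 of the 86 came from 1 cell. CD principal-like cells had 51 UMIs in the control and 6 with JPI-289, a log2 ratio of -3.47 (-5.08 to -2.35), and 44 of the 51 came from 1 cell. Without the cell with most Timp1 UMIs in each library the ratios were 3.56 and -0.97. Clustering at resolution 0.5 gave 0.10 for DCT and CNT-like cells. That class was wider there, with 518 and 665 cells, and no loop of Henle-like class was named. EC-like cells had 78 and 62 UMIs, a log2 ratio of -0.13 (-0.64 to 0.37), and monocyte-like cells 37 and 56, a ratio of 0.25 (-0.37 to 0.89). In PT-like cells, with 37 and 21 UMIs, it was -0.66 (-1.52 to 0.14), and none of these 3 intervals leaves out 0.

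Acta2 (ENSMUSG00000035783, chromosome 19 from 34241090 to 34255590, minus strand) encodes smooth muscle actin, present in arterial muscle and pericytes and gained by myofibroblasts. Stroma-like cells held 94.2% of its UMIs in the control and 95.1% with JPI-289. Its level was 5743 CPM (5583 to 5907) against 3142 (2970 to 3321), from 4849 UMIs in 123 of 158 cells and 1251 in 46 of 101, a log2 ratio of -0.87 (-0.96 to -0.78). After thinning it was detected in 67.6% (57.9 to 76.3%) and 39.7% (28.0 to 52.3%) of cells, and in 77.8% and 45.5% without thinning. The mural subcluster 1 did not share the lower level. There Acta2 was at 9917 CPM (9422 to 10431) in the control and 11173 (10527 to 11849) with JPI-289, a log2 ratio of 0.17 (0.06 to 0.28). Subcluster 3 was at 8007 (7595 to 8434) against 995 (720 to 1340), a log2 ratio of -2.99 (-3.48 to -2.57), and subcluster 5 at 13782 against 210 CPM, the latter from 1 UMI. The fibroblast-like subcluster had 1 Acta2 UMI in each library. The mural subcluster held 31.1% of the Acta2 UMIs of control stroma and 89.2% of those with JPI-289. Cells with both Acta2 and a collagen numbered 78 of 158 in the control and 17 of 101 with JPI-289, and cells with Acta2 and no collagen 45 and 29. Without subclusters 2 and 4 the log2 ratio over the class was -0.40.

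Outside the stroma, Acta2 was low and was lower with JPI-289, as it was in free RNA. Barcodes under 100 UMIs, which hold free RNA, had 168 Acta2 CPM in the control and 37.8 with JPI-289. PT-like cells were at 5.79 CPM (4.25 to 7.70) against 0.818, a log2 ratio of -2.72 (-4.34 to -1.59), where free RNA was estimated at 12.0 and 1.09. With free RNA subtracted this ratio was 0.15. C1q macrophage-like cells had 24 and 2 UMIs and neutrophil-like cells 33 and 31, log2 ratios of -3.31 (-6.72 to -1.59) and -1.98 (-2.74 to -1.23). Free RNA was estimated at 19.9 and 33.6 CPM in these control classes, where the levels were 44.9 and 75.9. EC-like cells were at 64.5 CPM (53.8 to 76.7) against 4.66 (2.01 to 9.18), a log2 ratio of -3.71 (-5.03 to -2.77), above a free RNA estimate of 28.4 in the control, and 32 of the 127 control UMIs came from 1 cell. Their 9 mural markers summed to 322 CPM in the control and 213 with JPI-289, with none at 0, and their part in the Acta2 difference was not tested.

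Over all barcodes, with no cell calling and no classes, the collagens and Acta2 again had the lowest ratios. The log2 ratio of CPM was -3.52 for Col1a1, -3.37 (-3.60 to -3.15) for Col3a1 and -2.93 (-3.17 to -2.70) for Col1a2, and -1.96 (-2.04 to -1.89) for Acta2, from 7115 and 1693 UMIs. It was -0.60 (-0.71 to -0.49) for Timp1, -0.29 (-0.38 to -0.19) for Fn1 and -0.25 (-0.36 to -0.14) for Tgfb1. Tgfbr2 was higher with JPI-289, at 0.24 (0.14 to 0.33), and Tgfb2, with 46 and 34 UMIs, was within counting error at -0.32 (-1.01 to 0.34). These values mix the level within a cell type with the share of each type.

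The other genes of TGF-β signalling and matrix were taken from a list of 88 genes ordered by role. In stroma-like cells 78 of them were measured, of which 8 were at least 2-fold higher and 24 at least 2-fold lower with JPI-289. The median log2 ratio was -0.30, against -0.02 over all genes. Of 15 other matrix genes measured in these cells, 11 were 2-fold lower, with a median of -1.92. Among them were Col6a1, Col6a2 and Col6a3 of type VI collagen, named after their values were seen, with log2 ratios of -2.11, -2.03 and -1.84, and Col5a3 of type V collagen, at 67.5 against 10.0 CPM (57 and 4 UMIs), a log2 ratio of -2.59 (-4.67 to -1.31), and Thbs2, which encodes a matricellular protein, at 39.1 against 7.53, a ratio of -2.17 (-4.72 to -0.70). Postn, which encodes periostin, had 47 control UMIs in 3 cells and 0 with JPI-289. Against a limit of 3 UMIs for that 0, the observed control level was 7.39-fold higher. The interval of the log2 ratio reaches up to -2.53, a smaller difference. Postn was among the leading genes of stroma subcluster 4, which held 22 control and 0 JPI-289 treated cells. Of 5 contractile and mesenchymal genes, 4 were 2-fold lower and 0 higher. Of 13 genes of collagen processing, 3 were 2-fold lower and 0 higher, with a median of -0.35. Genes of the signal itself differed in both directions, beside 11.3% of all genes higher and 14.2% lower. Of 4 measured SMADs and partners 1 was 2-fold higher and 0 lower, and of 8 inhibitors 2 were higher and 0 lower. Of 6 receptors 1 was 2-fold higher and 2 lower, with a median of -0.30, and of 8 genes of ligand storage and activation 0 were higher and 2 lower, with a median of 0.22. The receptor counted as higher, Acvr2a at 1.20 (-0.10 to 2.53), was within counting error. So was Ltbp3, a storage gene counted as lower, at -1.02 (-2.40 to 0.04). Smad3, which carries the TGF-β signal, had 12 and 15 UMIs, a ratio of 1.39 (0.21 to 2.63), and Smurf1, a ubiquitin ligase that removes SMADs and receptors, 21 and 30, a ratio of 1.59 (0.75 to 2.48). Ccn2, a TGF-β target that was also named after its values were seen, was higher with JPI-289, at 1048 against 2431 CPM, a ratio of 1.21 (1.08 to 1.35). Plat, which encodes tissue plasminogen activator, was at 146 against 668 CPM, a ratio of 2.19 (1.88 to 2.52). Its 266 JPI-289 UMIs included 98 from 1 cell. The make-up and the markers of the stroma-like class differed between the libraries, as given with the subclusters. Their part in the differences of these listed genes was not tested.

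**Figure D4:**
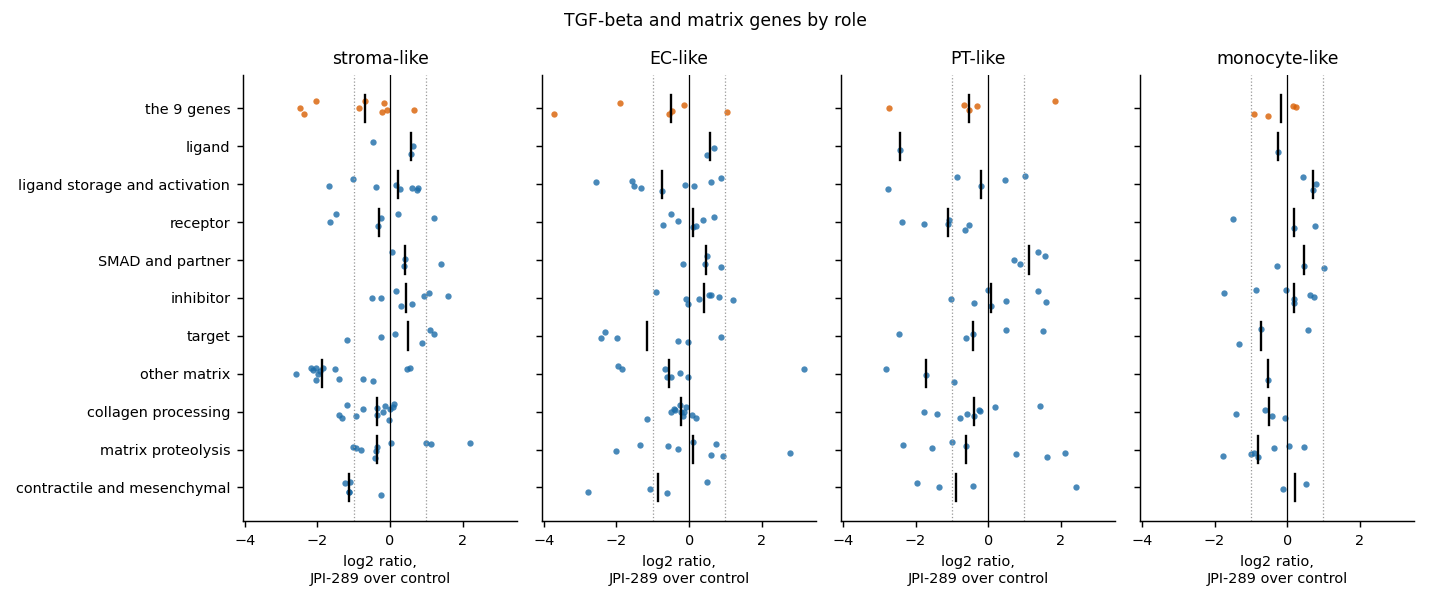
Log2 ratio, JPI-289 over control, of the 9 genes (orange) and the other genes of the TGF-β and matrix list (blue) by role, in 4 cell classes. Each point is 1 gene with at least 20 UMIs over both libraries and a UMI in each, black bars are medians and dotted lines mark 2-fold; in stroma-like cells the other matrix genes lie mostly left of -1 and the SMADs and inhibitors around 0 or right of it.

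In EC-like cells, 68 genes of the list were measured. At least 2-fold higher were 3 (4.41%, against 5.11% of all genes) and at least 2-fold lower 14 (20.6%, against 18.7%). The median was -0.16 against -0.18 over all genes. Centred on that median, 8 were 2-fold higher and 12 lower, with equal weight for each cell 8 and 16, and with free RNA subtracted 6 and 13. Plat was at 214 CPM (422 UMIs) in the control and 1466 (2518 UMIs) with JPI-289, a log2 ratio of 2.77 (2.62 to 2.93). Smurf1 was at 26.9 against 62.3 CPM, a ratio of 1.20 (0.72 to 1.71), and Vcan, which encodes versican, had 2 and 19 UMIs. Among the lowest were Tpm2, a contractile gene, at -2.78 (-3.95 to -1.89), Itgb8, an integrin chain that releases latent TGF-β, at -2.56 (-4.68 to -1.20), and Tgfbi, a TGF-β induced matrix gene, at -2.42 (-5.00 to -0.87). Itgb8 had 30 and 4 UMIs, 15.2 against 2.33 CPM, beside 106 and 15.5 CPM in PT-like cells. Free RNA was estimated at 16.9% and 17.6% of the UMIs of EC-like cells, and its part in the Itgb8 difference was not tested. Of the 21 control Tgfbi UMIs, 15 came from 1 cell. Of 9 genes of ligand storage and activation 4 were 2-fold lower and 0 higher, while of 7 other receptors none passed 2-fold. Tgfbr2 alone of the receptors passed 2-fold in these cells, by its ratio of 1.04, and its interval (0.83 to 1.25) reaches below 2-fold. Tgfbr3 was also higher, at 0.69 (0.35 to 1.04). Acvrl1 at -0.72 (-1.08 to -0.37) and Eng at -0.30 (-0.38 to -0.23) were lower.

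In PT-like cells, 51 genes of the list were measured. Of these, 10 were 2-fold higher (19.6%, against 9.14% of all genes) and 17 lower (33.3%, against 23.5%). The median was -0.42 against -0.19 over all genes. With free RNA subtracted, 13 were 2-fold higher and 13 lower. Itgb8 was at 106 CPM (858 UMIs) in the control and 15.5 (114 UMIs) with JPI-289, a ratio of -2.76 (-3.06 to -2.48). Ccn1, a matricellular target, was at 321 against 58.5 CPM, a ratio of -2.45 (-2.61 to -2.31), and Tnc, which encodes tenascin C, had 19 and 2 UMIs. The highest were Vim, the mesenchymal filament gene, at 13.1 against 70.8 CPM, a ratio of 2.43 (2.13 to 2.75), Plaur, the urokinase receptor gene, at 1.63 (1.35 to 1.93), and Mmp3, with 4 and 17 UMIs. Of the 17 JPI-289 UMIs of Mmp3, 12 came from 1 cell. Of 4 measured SMADs and partners 2 were 2-fold higher and 0 lower, with a median of 1.14, and of 6 receptors 4 were lower and 0 higher. Eng, 1 of these 4, was at 7.14 against 2.04 CPM, beside 1669 and 1352 in EC-like cells. Free RNA was estimated at 7.16% and 2.87% of the UMIs of PT-like cells, and its part in the Eng difference was not tested. As given with Tgfb1, the PT-like clusters each came almost wholly from 1 library. The markers of injured PT summed to 757 CPM in the control and 7888 with JPI-289. Their part in the differences of these listed genes was not tested.

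In monocyte-like cells, 34 genes of the list were measured. Of these, 1 was 2-fold higher (2.94%, against 10.1% of all genes) and 5 lower (14.7%, against 13.0%). The median was -0.08 against 0.04 over all genes, and centred on the latter the counts were 0 and 6. Smad4, the common SMAD partner, was at 60.3 against 123 CPM, a ratio of 1.02 (0.49 to 1.60), and Furin, which cuts the ligand precursor, at 157 against 272, a ratio of 0.79 (0.45 to 1.14). Acvr2a had 16 and 35 UMIs, a ratio of 0.76 (-0.11 to 1.74). The lowest were Mmp8, at 335 against 98.5 CPM, a ratio of -1.76 (-2.15 to -1.39), Bambi, with 27 and 10 UMIs, and Acvr1b, with 14 and 6. Of the 27 control Bambi UMIs, 21 came from 1 cell. In C1q macrophage-like cells 5 of 38 genes were 2-fold higher (13.2%, against 11.3% of all genes) and 10 lower (26.3%, against 17.0%). Plat had 0 and 67 UMIs there, 59 of them in 1 cell, and Tnc 3 and 23, all 23 in 1 cell. Eng, a TGF-β co-receptor gene, had 3 and 26 UMIs, 11 of the 26 in 1 cell, Plau 32 and 5, and Acvrl1 27 and 5. The 10 EC markers summed to 35.5 and 194 CPM in this class. The part of its marker shifts in these differences was not tested. Itgb5 was the lowest gene with over 100 UMIs, at 234 against 75.9 CPM, a ratio of -1.61 (-2.17 to -1.10). In the remaining classes the counts of 2-fold higher and lower genes are given beside the shares of all genes. They were 3 and 5 of 33 in neutrophil-like cells (9.09% and 15.2%, beside 11.6% and 10.3% of all genes). Loop of Henle-like cells had 1 and 9 of 39 (2.56% and 23.1%, beside 7.56% and 11.4%). DCT and CNT-like cells had 5 and 5 of 30 (16.7% each, beside 8.34% and 9.90%). The counts in CD principal-like cells were 7 and 4 of 42 (16.7% and 9.52%, beside 8.50% and 13.7%). Neutrophil-like cells had 2 and 97 UMIs of Ccn2, a ratio of 3.39 (1.81 to 6.77), 2 and 39 of Pmepa1, an inhibitor induced by TGF-β, and 0 and 33 of S100a4. Their lowest ratios were those of P4ha1 at -1.99, Timp3 at -1.43 and Gdf15 at -1.39. Smad3 was at 28.1 against 91.0 CPM in loop of Henle-like cells, a ratio of 1.68 (1.07 to 2.37), followed by Smurf2 at 0.98 and Ski at 0.60, and Gdf15 at -2.49, Plod3 at -2.41 and Ccn1 at -1.96 were lowest there. In DCT and CNT-like cells the ratios were highest for Smurf1 at 2.89, Ccn2 at 1.68 and Plaur at 1.43, and lowest for Gdf15 at -1.68, Mmp7 at -1.65 and Serpinh1 at -1.42. In CD principal-like cells Plod2 at -1.85 and Acvr1b at -1.67 were among the lowest, and Tgm2 at 1.75, Plaur at 1.46 and Sparc at 1.38 were highest. In CD intercalated-like cells 3 of 18 genes were 2-fold higher and 1 lower, beside 13.5% and 8.59% of all genes, with Mmp7 (0 and 20 UMIs, all in 1 cell), Thbs1 and Smad3 highest and Tgfbr1, Itgb6 and Gdf15 lowest.

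Across the 22 points of the 11 classes in both libraries, the patterns of the genes fell into a few kinds. The likeness was measured as Pearson's r of log2(CPM + 10), as a description, since the points share libraries and depths. Col1a1 and Col1a2 had an r of 1.00 with each other, and Col3a1 an r of 0.98 with either. In every compared class but the stroma-like cells the collagens were below 10 CPM, so their r values rest on the stroma-like points. Outside the 9 genes, those most like Col1a1 were Col6a3 at 1.00, Col6a2 and Col6a1 at 0.99. Col1a2 was followed by Col6a3, Ddr2 and Cd248, and Col3a1 by A730049H05Rik, Gpc6 and Tmem45a, all at 0.99. Acta2 was most like Tpm2, Meis1 and Myh11, at 0.96, 0.96 and 0.95, and Tgfb2, in few UMIs, like Sparcl1, Pcp4l1 and Prkg1. Fn1 was most like Fam49a and Cdk20, both at 0.91, and Vcan at 0.90, and its r with Col1a1 was 0.35. Tgfb1 went with Ecm1, Inf2 and Emp3 at 0.93 to 0.94, and Tgfbr2 with Cr1l, H2-K1 and Serinc3 at 0.85 to 0.87. Timp1 went with Tmeff1, Fstl3 and Gpm6b at 0.85 to 0.87, and its r with Col1a1 was 0.75.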

How the data were processed

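The authors aligned the reads of each library (10x Chromium 5′ kit) to mm10 with Cell Ranger 5.0.1, per the labels, and deposited the raw UMI count of every gene in every barcode, before any cell calling. Genes were matched by symbol. The 9 genes, the list of 88 others and the marker lists were chosen with earlier results of these data known. Cells were called by total UMIs and then, from 500 UMIs, by difference from empty droplets (10000 simulations, false discovery rate 0.01), and those over 50% mitochondrial were left out. Cells were clustered (2000 variable genes, 30 components, 20 neighbours, Leiden resolution 1) without the listed genes and without correction between libraries. Clusters took the name of the leading marker list if its score reached 0.75 with 3 markers detected, by a rule set after the clusters were seen. Below a score of 2, a marker of that list also had to be among the 10 leading genes of the cluster. No list of another class could have more markers there, and shallow clusters needed a marker of their own there. By these conditions 152 control and 368 JPI-289 treated cells stayed unnamed. Subclusters of stroma were numbered. Doublets were kept, since scrublet marked 8 of 8795 cells and so did not work. UMIs were summed per class and library and 0.5 added for ratios. Free RNA was estimated per class from barcodes under 100 UMIs and from PT markers, or EC markers in PT-like cells. Named genes of the list are, per class, the 3 highest and 3 lowest ratios with at least 20 UMIs; others were chosen after their values were seen. A gene that the rule names is not reported here. Alternatives changed calling, depth, mitochondrial limit, clustering, doublet scores, scaling, gene minimum and thinning, and 4 were added after seeing the data. Ratios and cell calling were tested on simulated data. The analysis ran in scanpy 1.11.5 with leidenalg 0.10.2, under Python 3.11.15, with scipy 1.17.1 for intervals, numpy 2.4.6 and scikit-learn 1.9.0.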

Additional observations from a re-analysis of the deposited data

Results flagged for a closer look

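For 3 of the 9 genes the log2 ratio (JPI-289 over control) had opposite signs in a pair of cell classes, with both counting intervals leaving out 0. The share of all genes with such a pair was not counted, so the 3 genes are given as a description. With 1 library per condition the difference between the classes was not tested. Fn1 was at -1.90 in EC-like cells and 1.05 in C1q macrophage-like cells, where 23 of 28 control UMIs and 23 of 59 JPI-289 UMIs came from single cells. Under the alternatives the EC-like ratio of Fn1 came up to -0.36, and that of C1q macrophage-like cells reversed, down to -0.98. Tgfb1 was at -1.51 in neutrophil-like cells and 1.85 in PT-like cells, where the control level of 3.69 CPM (UMIs per 1000000 UMIs of the class) lay at the free RNA estimate of 3.73. Timp1 was at -3.47 in CD principal-like cells and 3.99 in DCT and CNT-like cells, where 44 of 51 control UMIs and 51 of 86 JPI-289 UMIs came from single cells.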

How the results depend on the processing

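The 40 ratios of a gene in a class were computed again under up to 17 alternatives, 4 of them chosen after seeing the data. Of 639 values, 581 moved by less than the counting interval, 55 moved further and 3 reversed. Of 80 shares, 70 stayed within it, 9 moved and 1 reversed. Ratios whose interval held 0 also changed sign under some alternatives and are not among the 3 values counted as reversed. Among these, Fn1 in PT-like cells, at -0.52, ranged from -2.66 to 1.84, and Timp1 in stroma-like cells, at -0.09, from -0.74 to 1.02. The collagens in stroma-like cells stayed between -3.68 and -1.86, and Tgfbr2 in EC-like cells between 0.91 and 1.23. The reversed values were Acta2 in PT-like cells at 0.15 with free RNA subtracted, Fn1 in C1q macrophage-like cells at -0.98 with the first step of calling alone and -0.74 at a limit of 20% mitochondrial UMIs, and the Fn1 share in stroma-like cells, 1.04 percentage points higher with JPI-289 when cells were thinned to 500 UMIs. The cause was not tested.

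Counts of 2-fold differences moved by over 1.5 times as follows. Combinations of the 9 genes and classes, 6 higher and 11 lower, came to 3 higher with the first step of calling alone, at resolution 0.5 and without the highest 5% of doublet scores, to 21 lower at a minimum of 5 UMIs, and to 2 higher and 4 lower at 100 UMIs. Of the other listed genes, those higher in EC-like cells, 3, came to 6 with free RNA subtracted or a minimum of 5 UMIs, and to 8 when centred or with equal weight for each cell. Those higher in stroma-like cells, 8, came to 13 with equal weight, 3 at 100 UMIs, and 5 with the first step alone or at resolution 0.5. Those higher in monocyte-like cells, 1, came to 0 when centred or with the first step alone, and 3 at 5 UMIs or resolution 0.5. Those lower in monocyte-like cells, 5, came to 10 at 5 UMIs, 2 at 100 UMIs and 11 at resolution 0.5, and at 100 UMIs those lower in PT-like and EC-like cells came to 11 and 9. A minimum of 100 UMIs leaves fewer genes measured, and 5 UMIs more. At resolution 0.5 some classes hold other cells. No C1q macrophage-like class was named there, and the monocyte-like class held 201 control and 299 JPI-289 treated cells. No paired analysis was possible because each condition had 1 library. At this depth 40 of the 99 combinations of a gene and a class had enough UMIs for a ratio.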
